A study of Mus musculus with 6 samples.

Results

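The 9 mRNAs described here encode the fatty acid-binding proteins Fabp1 to Fabp7, the cellular retinol-binding protein Rbp2 and the plasma retinol-binding protein Rbp4. They were chosen by gene symbol through the Ensembl gene IDs of the deposited rows and are 9 of 18437 mRNAs listed in any library. The libraries were ribosome profiling (Ribo-seq) libraries, in which mRNA fragments covered by translating ribosomes are sequenced, of heart, lung, kidney, brain, small intestine and colon. All came from WT mice of strain C57BL/6J aged 4 weeks that received no treatment, with 1 library per labelled tissue and no replicate. The question asked of them was which paralog carried most ribosomes in each tissue.

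Fatty acid-binding proteins are small cytosolic proteins that fold into a barrel around a hydrophobic ligand. They carry long-chain fatty acids, and Fabp6 carries bile acids, between membranes, enzymes and the nucleus. Most were named after the tissue in which they were first found, namely liver (Fabp1), intestine (Fabp2), heart and muscle (Fabp3), adipocyte (Fabp4), epidermis (Fabp5), ileum (Fabp6) and brain (Fabp7). Rbp2 has the same barrel fold and takes up retinol in enterocytes, the absorptive cells of the gut. Rbp4 belongs to another protein family, the lipocalins, and carries retinol through the blood from liver and fat.

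The libraries did not all match their labels, which bears on every value given here. Of 4 markers listed for each tissue, all 4 heart markers and all 4 lung markers were highest in the library of that name. All 4 small intestine markers (Apoa4, Sis, Lct and Alpi) were highest in the brain-labelled library, and all 4 brain markers in the small intestine-labelled library. All 4 kidney markers were highest in the colon-labelled library, and all 4 colon markers in the kidney-labelled library. The labels were kept, and each library is called by its label throughout, so that the brain-labelled library is the one with the label brain. Values are RPKM, the reads of an mRNA on its coding sequence (CDS) relative to CDS length and to the reads of the whole library, which puts genes of different length on a common scale. The libraries held between 4504853 and 10635031 reads on CDSs. Intervals in parentheses are exact 95% Poisson intervals on the reads of that mRNA. They cover counting error only, since the reads carry no molecular identifiers and no tissue had a replicate library, and tissues were therefore not tested against each other. The sources used here do not say whether a library came from 1 mouse or several. In a whole tissue, fewer cells of a type and less RNA per cell cannot be told apart, and ribosome density does not separate the amount of an mRNA from how often it is translated.

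Reads of paralogs can be exchanged only where their sequences are nearly the same, so stretches that Fabp3, Fabp4 and Fabp7 share are shown here. Over the 21 pairs of Fabp1 to Fabp7 the proteins were between 26.2% and 64.4% identical (median 32.3%), with Fabp3 and Fabp4 the closest pair. Rbp2 was between 32.5% and 42.7% identical to the 7 fatty acid-binding proteins. The closest windows of 29 nt, about the length of a ribosome footprint, differed by 2 bases between Fabp3 and Fabp7, by 3 bases between Fabp4 and Fabp7 and by 4 bases between Fabp3 and Fabp4. They are written 5′ to 3′ on the coding strand of GRCm39 with the differing bases in capitals, the Fabp3 and Fabp7 windows from coding exon 2 (chr4:130206182-130206210, plus strand, and chr10:57661700-57661728, plus strand), the Fabp4 and Fabp7 windows from the junction of coding exons 1 and 2 (chr3:10271157-10273501, minus strand, and chr10:57661175-57661627, plus strand, with the intron between them left out) and the Fabp3 and Fabp4 windows from coding exon 1 (chr4:130202577-130202605, plus strand, and chr3:10273537-10273565, minus strand).
Fabp3 beside Fabp7: ttcaagaacacagagatcaaCttTcagct
Fabp7 beside Fabp3: ttcaagaacacagagatcaaTttCcagct
Fabp4 beside Fabp7: tgggAgtgggctttgccacAaggAaagtg
Fabp7 beside Fabp4: tgggCgtgggctttgccacTaggCaagtg
Fabp3 beside Fabp4: gaCgcctttgtCggTacctggaagctAgt
Fabp4 beside Fabp3: gaTgcctttgtGggAacctggaagctTgt

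Of the 371 windows of this length in the Fabp3 CDS, 5 matched Fabp7 with at most 2 mismatches, and 5 of 536 in Fabp7 matched Fabp3. In Fabp4, 7 of 368 windows matched Pmp2, a neighbouring gene of the family. No window of the other 6 members matched another of the 18306 mRNAs searched, of 18437 listed. Fabp3 had 14435 reads in the heart-labelled library, where Fabp7 had 0. The paralogs therefore shared little sequence over which reads could be assigned to the wrong gene or dropped as ambiguous.

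The highest ribosome densities of the set belonged to Fabp2 and Fabp6 in the brain-labelled library, which carried the small intestine markers. Fabp2, the intestinal fatty acid-binding protein, reached 24021 RPKM (23873 to 24170), and Fabp6, the ileal bile acid-binding protein, 26087 RPKM (25930 to 26244). Fabp6 ranked 4 and Fabp2 ranked 5 among all mRNAs of that library, and they took 1.00% and 0.951% of its reads. The 9 members together took 1.97% of the reads there, and between 0.0323% and 0.208% in each of the other 5 libraries.

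The coding sequences of these 2 mRNAs differ in codon usage. The GC3 share, the percent of codons ending in G or C with Met and Trp codons left out, was 47.6% in Fabp2 (60 of 126 codons) and 70.2% in Fabp6 (85 of 121), against a median of 58.9% over 18154 mRNAs. The initial 300 bases of each CDS, from the start codon, are shown 5′ to 3′ as read from GRCm39, with each G or C at the end of a counted codon in capitals. Fabp2 lies at chr3:122688721-122693155 on the plus strand and Fabp6 at chr11:43486872-43492469 on the minus strand, each with 4 coding exons.
Fabp2: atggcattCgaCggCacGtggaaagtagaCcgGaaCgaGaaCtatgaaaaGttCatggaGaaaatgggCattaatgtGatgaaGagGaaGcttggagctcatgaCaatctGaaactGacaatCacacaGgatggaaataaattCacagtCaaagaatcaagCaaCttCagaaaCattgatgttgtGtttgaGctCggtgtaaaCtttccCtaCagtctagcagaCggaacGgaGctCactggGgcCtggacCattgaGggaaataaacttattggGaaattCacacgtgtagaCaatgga
Fabp6: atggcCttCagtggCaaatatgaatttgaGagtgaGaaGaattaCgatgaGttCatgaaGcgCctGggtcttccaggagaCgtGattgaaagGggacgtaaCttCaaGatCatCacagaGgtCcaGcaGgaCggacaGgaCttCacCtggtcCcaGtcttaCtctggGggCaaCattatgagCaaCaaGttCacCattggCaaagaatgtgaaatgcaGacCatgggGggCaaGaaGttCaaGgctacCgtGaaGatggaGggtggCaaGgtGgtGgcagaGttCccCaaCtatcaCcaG

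Of the 100 codons shown for each, 63 end in a capital in Fabp6 and 45 in Fabp2. In the brain-labelled library the Fabp2 to Fabp6 ratio of densities was 0.921 (exact binomial 95% interval 0.913 to 0.929). Whether codon usage bears on the densities was not tested. Over all 9 members the GC3 share ran from 46.7% in Fabp7 to 72.4% in Rbp2. The Fabp7 value is of the counted CDS of 564 nt, of which 216 nt are not in its isoform of 396 nt.

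**Figure D1:**
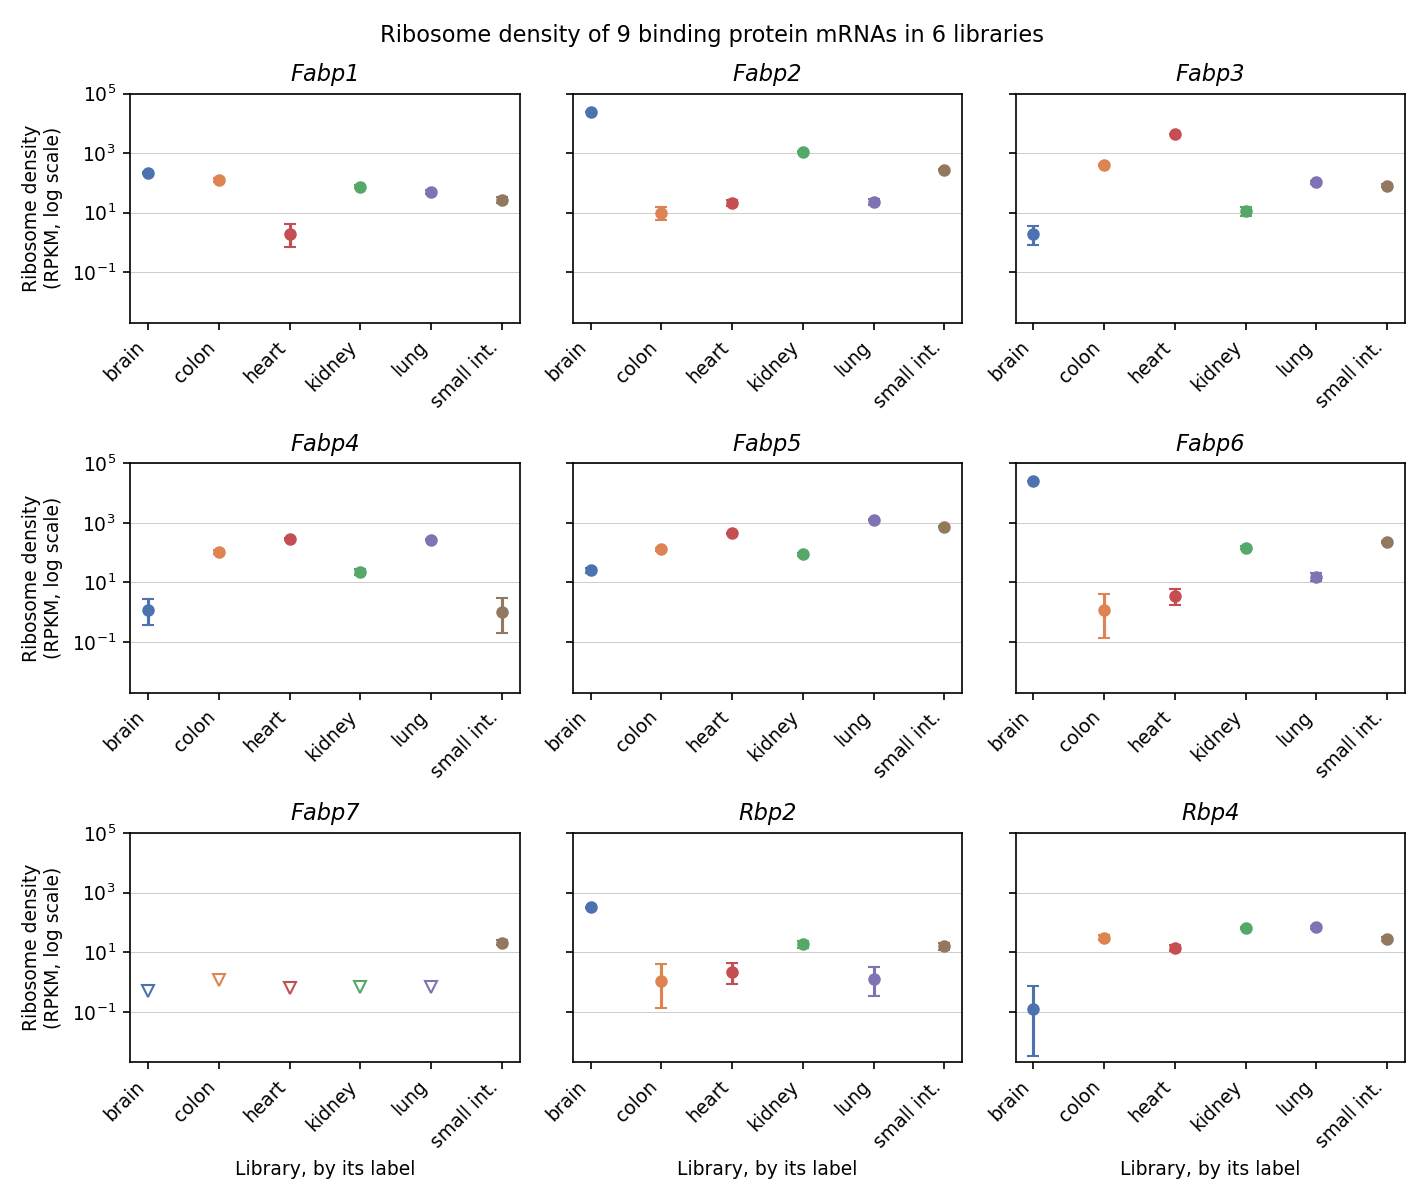
Ribosome density (RPKM, log scale) of the 9 mRNAs in the 6 libraries, named by their labels, with exact 95% Poisson intervals. Open triangles mark the RPKM of 3 reads where no read was counted. Fabp2 and Fabp6 reached 24021 and 26087 in the brain-labelled library, and Fabp7 had reads only in the small intestine-labelled library.

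Fabp2 followed a steep order across the other libraries. It was 1095 RPKM (1058 to 1133) in the kidney-labelled library, 280 (262 to 300) in the small intestine-labelled one, 22.9 (17.8 to 28.9) in the lung-labelled one, 21.9 (17.1 to 27.6) in the heart-labelled one and 9.53 (5.55 to 15.3) in the colon-labelled one. The lung and heart values did not differ beyond counting error, and their order turned with median-of-ratios size factors (16.4 against 24.4) and without Kri1 and the mitochondrially encoded mRNAs. Every other neighbouring pair in the order differed beyond counting error. The kidney-labelled library, which carried the colon markers, had Fabp2 as its dominant paralog and at rank 82 of all its mRNAs.

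Fabp6 had a different order. It was 229 RPKM (212 to 247) in the small intestine-labelled library, 149 (135 to 163) in the kidney-labelled one, 15.2 (11.1 to 20.3) in the lung-labelled one, 3.50 (1.75 to 6.26) in the heart-labelled one and 1.16 (0.140 to 4.18) in the colon-labelled one, the last from 2 reads. The heart and colon intervals overlapped. The Fabp2 to Fabp6 ratio, 0.921 in the brain-labelled library, was 7.36 (6.66 to 8.16) in the kidney-labelled one and 1.23 (1.11 to 1.36) in the small intestine-labelled one, so the pair did not keep its proportion across libraries.

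Rbp2, the retinol carrier of enterocytes, was also highest in the brain-labelled library, at 316 RPKM (300 to 334). It was 18.4 (13.9 to 23.9) in the kidney-labelled library and 15.6 (11.5 to 20.7) in the small intestine-labelled one, which did not differ beyond counting error. In the remaining libraries it had 2.13 (labelled heart), 1.29 (labelled lung) and 1.10 RPKM (labelled colon), from 7, 4 and 2 reads. Per length, Fabp2 was 75.9 times as dense as Rbp2 in the brain-labelled library (71.9 to 80.1).

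Fabp1, the liver type that the upper small intestine also makes, was far less dense than Fabp2 and Fabp6. It was 213 RPKM (199 to 228) in the brain-labelled library, 125 (109 to 143) in the colon-labelled one, 75.5 (65.8 to 86.2) in the kidney-labelled one, 50.3 (42.5 to 59.0) in the lung-labelled one and 26.4 (20.9 to 33.0) in the small intestine-labelled one, and 1.92 (0.706 to 4.19) in the heart-labelled one, from 6 reads. None of these neighbours overlapped, though with size factors the lung and small intestine values, 36.0 and 30.1, did. The span from highest to second was 1.71-fold. Fabp2 was 113 times as dense as Fabp1 in the brain-labelled library, while in the colon-labelled library Fabp1 was the denser, with a Fabp2 to Fabp1 ratio of 0.0764 (0.0437 to 0.125). The 5 hepatocyte markers (Alb, Apoh, Fga, Fgb and Ahsg) summed to 733 RPKM in the kidney-labelled library and 540 in the colon-labelled one, and to between 17.5 and 105 in the other 4. Alb made up 633 of the 733 and 375 of the 540. Alb and Apoh were highest in the kidney-labelled library, while Fga, Fgb and Ahsg were highest in the colon-labelled one. All 5 had reads in the libraries labelled colon, kidney and small intestine, Fga and Fgb were at 0 in the brain-labelled one, Apoh in the heart-labelled one, and Apoh and Fgb in the lung-labelled one. Their part in the Fabp1 values was not tested.

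The small intestine markers and the gut members were all highest in the brain-labelled library, but their levels elsewhere did not keep in step. Relative to the brain-labelled library, Apoa4, Sis, Lct and Alpi stood at 1.67% to 1.82% in the small intestine-labelled library, where Fabp6 stood at 0.878%, Fabp2 at 1.17%, Rbp2 at 4.94% and Fabp1 at 12.4%. In the kidney-labelled library the markers stood at 0.435% to 6.15%, with Fabp6 at 0.570%, Fabp2 at 4.56%, Rbp2 at 5.80% and Fabp1 at 35.4%. All 4 markers had reads in all 6 libraries. Fabp2 and Fabp6 thus lay below all 4 markers in the small intestine-labelled library, and Fabp1 lay above all 4 in each of the other 5 libraries. The part of small intestine tissue in the low values was not tested.

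**Figure D2:**
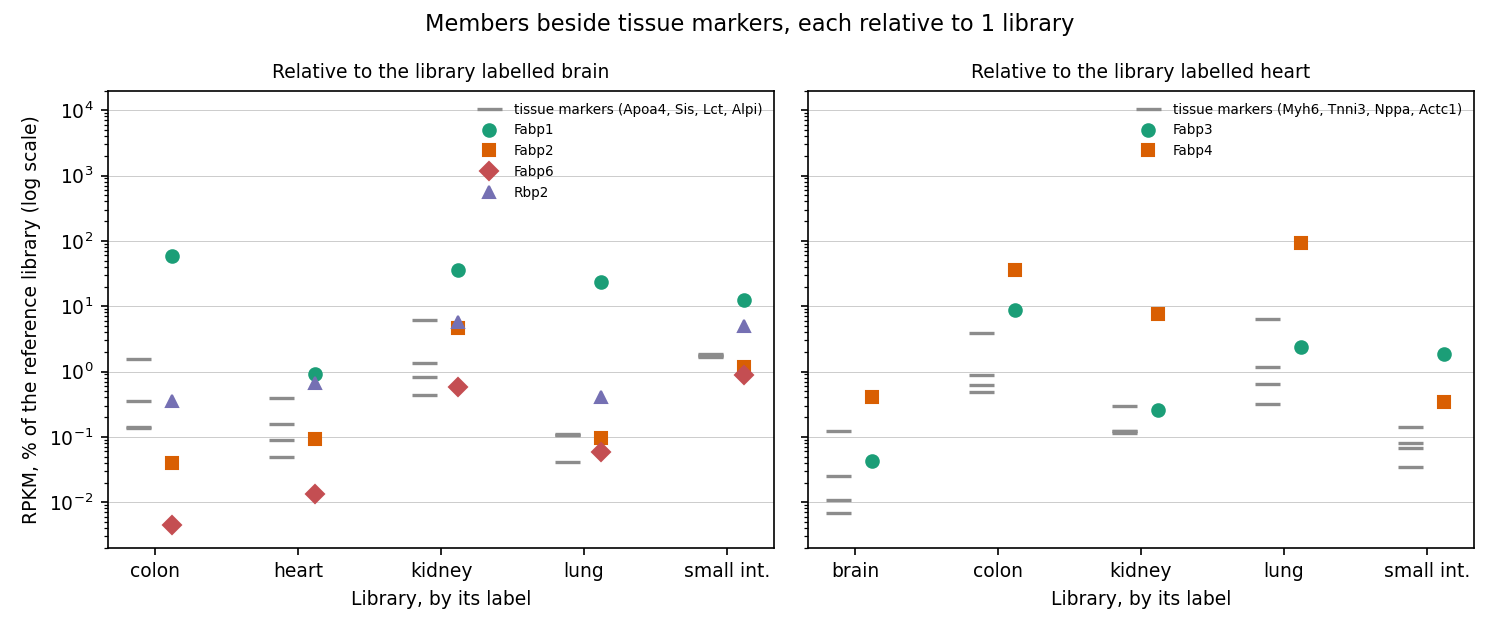
RPKM as a percent of that in the brain-labelled library (left) or the heart-labelled one (right), on a log axis, for members (filled symbols) and for 4 tissue markers (grey bars), in the other 5 libraries. Left, Fabp2 and Fabp6 stand at 1.17% and 0.878% in the small intestine-labelled library, below the markers. Right, Fabp3 stands at 8.82% in the colon-labelled library, above the 4 heart markers.

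Fabp3, which serves fatty acid oxidation in heart and skeletal muscle, was densest in the heart-labelled library. It was 4421 RPKM (4349 to 4494) there and ranked 28 of all its mRNAs. It was 390 (362 to 420) in the colon-labelled library, 106 (95.1 to 118) in the lung-labelled one, 81.3 (71.5 to 92.1) in the small intestine-labelled one, 11.6 (8.06 to 16.1) in the kidney-labelled one and 1.89 (0.814 to 3.71) in the brain-labelled one. No neighbouring pair overlapped in RPKM. The lung and small intestine values overlapped under the other scalings, at 108 and 96.9 without Kri1 and the mitochondrially encoded mRNAs and at 132 and 110 as TPM, and their order turned with size factors, at 76.2 and 92.6. The colon-labelled library, which carried the kidney markers, held Fabp3 at 8.82% of its heart level, where Myh6, Tnni3, Nppa and Actc1 stood at 0.481% to 3.82% (median 0.746%). In the lung-labelled library Fabp3 stood at 2.41% and the heart markers at 0.314% to 6.26%. In the small intestine-labelled library it stood at 1.84% and they stood at 0.0347% to 0.142%. Fabp3 was thus above all 4 markers in the libraries labelled colon and small intestine, and within their range in the lung-labelled one.

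Fabp4, the adipocyte type that capillary endothelium and macrophages also make, was highest in the libraries labelled heart and lung. It was 291 RPKM (272 to 310) in the heart-labelled library and 274 (256 to 293) in the lung-labelled one, which in RPKM did not differ beyond counting error. It was 104 (89.8 to 120) in the colon-labelled library and 22.3 (17.3 to 28.3) in the kidney-labelled one. In the libraries labelled brain and small intestine it was at 1.19 and 0.991 RPKM, from 5 and 3 reads. The order of heart and lung turned when levels were expressed as TPM, at 302 and 340, and with size factors heart stood 1.65-fold above lung, at 324 and 196, without overlap.

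Lists of markers of the cells that make Fabp4 summed to more in the lung-labelled library than in the heart-labelled one, although Emcn (endothelial), Cidea and Retn (adipocyte) and Adgre1 and C1qa (macrophage) were higher in the heart-labelled one. The 8 endothelial markers summed to 2668 RPKM in the lung-labelled library, 545 in the heart-labelled one and between 84.5 and 223 in the other 4. Of the 8, 7 were highest in the lung-labelled one, the exception being Emcn. That library was the highest for 26.8% of the 12976 mRNAs with at least 50 reads in some library. Gpihbp1 and Egfl7 were at 0 in the brain-labelled library. Their level in the heart-labelled library was 20.0% of that in the lung-labelled library at the median of the 8, while Fabp4 stood at 106%. The 8 adipocyte markers summed to 811 RPKM in the lung-labelled library, 673 in the brain-labelled one, 164 in the heart-labelled one and between 10.3 and 278 in the other 3. Cidec made up 634 of the 673 in the brain-labelled library, where Cidea, Lep and Retn were at 0, as they were in the lung-labelled one. Lep was at 0 in all 6 libraries. The 7 macrophage markers summed to 912 RPKM in the lung-labelled library, with Lyz2 at 727, and to between 63.2 and 217 elsewhere. Marco was at 0 in the libraries labelled brain, colon and small intestine, Cd68 in those labelled brain and colon, and Adgre1 in the brain-labelled one. The part of these cell types in the Fabp4 values was not tested.

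Fabp5, the epidermal type, had the smallest span of the 9 members, with 112 reads or more in every library and a lowest level at 2.07% of its highest. It was 1255 RPKM (1216 to 1294) in the lung-labelled library, 750 (719 to 781) in the small intestine-labelled one, 446 (424 to 469) in the heart-labelled one, 128 (112 to 145) in the colon-labelled one, 89.2 (79.0 to 100.4) in the kidney-labelled one and 26.0 (21.4 to 31.3) in the brain-labelled one. No neighbouring pair overlapped in RPKM. With size factors the lung and small intestine values came to 899 and 853, a ratio of 1.05 with overlapping intervals. The colon and kidney values overlapped under each of the other scalings, at 114 and 99.5 with size factors, 141 and 120 without Kri1 and the mitochondrially encoded mRNAs, and 149 and 125 as TPM. It ranked 75 of all mRNAs in the lung-labelled library and 128 in the small intestine-labelled one. The 4 squamous markers (Krt5, Krt14, Trp63 and Dsg3), which define the epidermal cells the gene was named for, summed to at most 3.40 RPKM in any library. Krt14 and Dsg3 were at 0 in the lung-labelled library, and all 4 in the colon-labelled one. The endothelial and macrophage lists, given with Fabp4, were also at their highest sum in the lung-labelled library, and the brain and astroglial markers in the small intestine-labelled one. Their part in the Fabp5 values was not tested.

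Fabp4 and Fabp5 lie in a cluster of 5 genes of the family (Fabp5, Pmp2, Fabp9, Fabp4 and Fabp12) within 289 kb at chr3:10077602-10366433, yet their densities did not move in step. The Fabp5 to Fabp4 ratio was 1.53 (1.41 to 1.67) in the heart-labelled library, 4.58 (4.25 to 4.94) in the lung-labelled one and 756 (259 to 3671) in the small intestine-labelled one, where Fabp4 had 3 reads. Fabp9 and Fabp12 had no reads in any library. Pmp2, a fatty acid-binding protein of myelin, had reads only in the small intestine-labelled library, at 3.30 RPKM.

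Fabp7, the brain type of astroglia and radial glia, was counted only in the small intestine-labelled library, which carried the brain markers. It had 91 reads there, or 21.1 RPKM (17.0 to 25.9), and 0 reads in the other 5 libraries, where 3 reads, the limit set here for a count of 0, would be 0.5 (labelled brain) to 1.18 RPKM (labelled colon). The upper ends of the 95% intervals there were 0.615 to 1.45 RPKM. Against 3 reads in the colon-labelled library its level was at least 17.9-fold higher. Of 6 astroglial markers, 4 (Gfap, Slc1a2, Slc1a3 and Aldoc) stood in the small intestine-labelled library at least 4-fold above the next. This held for 9.32% of all mRNAs with at least 50 reads in some library. The other 2 were higher elsewhere, Aqp4 in the kidney-labelled library (403 against 163 RPKM) and Gja1 in the heart-labelled one (986 against 548). The list summed to 2755 RPKM in the small intestine-labelled library and to between 71.8 and 1014 elsewhere. Gfap was at 0 in the other 5 libraries, as Fabp7 was. The RPKM of Fabp7 depends on the isoform counted. The file used a CDS of 564 nt in 3 exons, of which 348 nt are shared with the isoform of 396 nt in 4 exons. Had all 91 reads fallen on the shared stretch, the density over it would be 34.2 RPKM.

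Rbp4 showed no single tissue. It was 68.1 RPKM (61.5 to 75.2) in the lung-labelled library, 64.2 (57.7 to 71.2) in the kidney-labelled one, 30.8 (25.1 to 37.4) in the colon-labelled one, 28.3 (24.1 to 33.1) in the small intestine-labelled one and 13.8 (10.99 to 17.1) in the heart-labelled one. In the brain-labelled library it had 1 read, or 0.128 RPKM. The lung and kidney values did not differ beyond counting error, nor did those labelled colon and small intestine, whose order turned with size factors and as TPM. The kidney-labelled library became the highest as TPM (89.6 against 84.5), with size factors (71.6 against 48.8) and without Kri1 and the mitochondrially encoded mRNAs (86.4 against 69.0), and with the last 2 settings the pair no longer overlapped. The counted isoform of Rbp4 has 132 nt of CDS beyond the 603 nt of the shorter one. Had all its reads fallen on those 603 nt, its densities over them would run up to 83.0 RPKM.

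Each library had its own mix of the 7 fatty acid-binding paralogs. In the brain-labelled library Fabp6 made up 51.8% of their summed RPKM (Wilson 95% interval 51.6 to 52.0) and Fabp2 47.7% (47.5 to 47.9), with Fabp1 next at 0.423%. In the heart-labelled library Fabp3 made up 85.3% (84.7 to 85.8), with Fabp5 at 8.60% and Fabp4 at 5.61%. In the kidney-labelled library Fabp2 made up 75.9% (74.6 to 77.2) and Fabp6 10.3%. In the lung-labelled library Fabp5 made up 72.8% (71.6 to 74.0) and Fabp4 15.9%.

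The remaining libraries were more mixed. In the small intestine-labelled library Fabp5 made up 54.0% (52.5 to 55.5), Fabp2 20.2%, Fabp6 16.5% and Fabp3 5.85%, while Fabp7, the type named for brain, made up 1.52% (1.24 to 1.86). In the colon-labelled library Fabp3 made up 51.5% (48.8 to 54.2), and Fabp5, Fabp1 and Fabp4 made up 16.9%, 16.5% and 13.8%. The summed RPKM of the 7 was 50350 in the brain-labelled library, 5185 in the heart-labelled one and between 757 and 1723 in the other 4. The densest paralog stood 1.09-fold above the next in the brain-labelled library and 9.91-fold above it in the heart-labelled one.

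**Figure D3:**
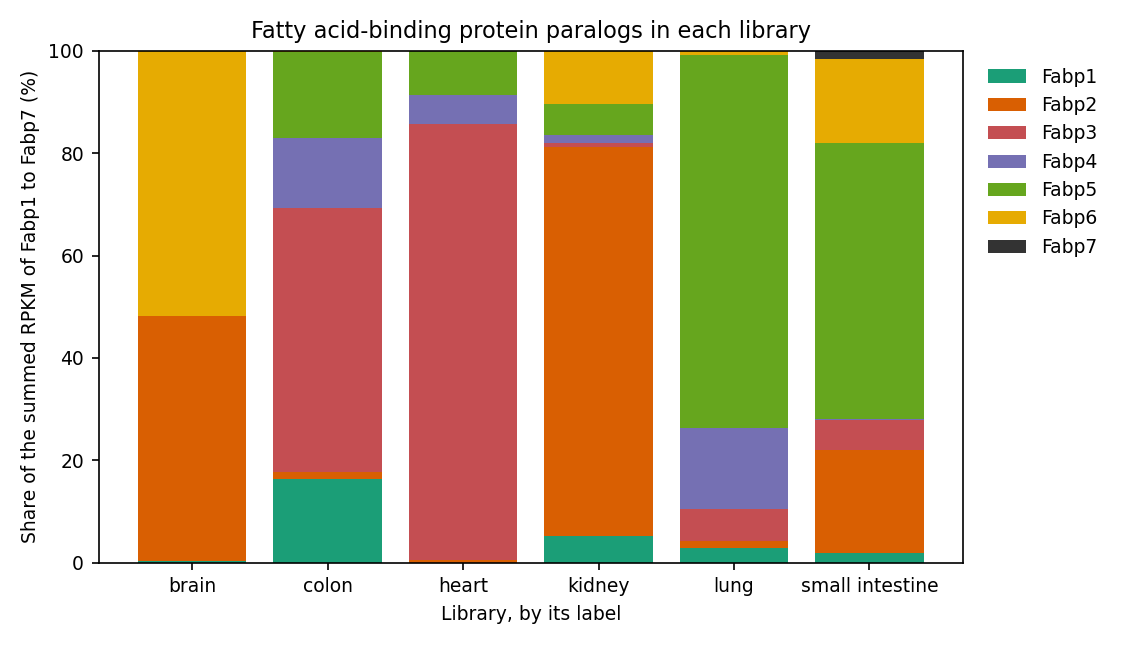
Share of each paralog in the summed RPKM of Fabp1 to Fabp7 (percent, stacked to 100) in the 6 libraries, named by their labels. Fabp6 and Fabp2 fill the bar of the brain-labelled library, Fabp3 makes up 85.3% of the heart-labelled one, and Fabp5 leads in those labelled lung and small intestine.

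A member was called when its highest library stood at least 4-fold above the next, a next library with under 3 reads being set to the RPKM of 3 reads. This held for 5 of the 9 members, namely Fabp6 (114-fold), Fabp2 (21.9-fold), Fabp7 (at least 17.9-fold), Rbp2 (17.2-fold) and Fabp3 (11.3-fold), against 22.2% of the 12976 mRNAs with at least 50 reads in some library. Fabp1 (1.71-fold), Fabp5 (1.67-fold), Fabp4 (1.06-fold) and Rbp4 (1.06-fold) were not called. By library, 3 of the 9 were called in the brain-labelled one, against 2.46% of all mRNAs. In the heart-labelled one the count was 1 of 9 against 2.47%, and in the small intestine-labelled one 1 of 9 against 9.32%. None was called in the libraries labelled colon, kidney and lung, where 2.37%, 0.840% and 4.78% of all mRNAs were. With 1 library per tissue these counts describe the libraries and carry no test. Without the brain-labelled library only Fabp3 and Fabp7 remained called, 2 of 9 against 25.5% of all mRNAs, which is no higher a share, and Fabp2 stood 3.90-fold higher in the kidney-labelled library than in the small intestine-labelled one.

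Genes that absorb fat in enterocytes were mostly highest in the library of Fabp2. Of 18 genes of that list, 15 were highest in the brain-labelled library and 11 were called there, against 17.1% and 2.46% of all mRNAs tested, and its median RPKM was 138 in that library and between 5.01 and 17.1 in the other 5. Over all mRNAs tested the median was between 6.47 and 9.91. Apoa1, an apolipoprotein of chylomicrons and high-density lipoprotein, reached 30285 RPKM, 121-fold above the next library. Apoa4, also carried on chylomicrons, was 58.6-fold, Npc1l1, the cholesterol importer of the brush border, 50.1-fold and Creb3l3, a transcription factor of lipid genes, 40.6-fold above the next. Apoa4 is also a marker used to check the labels. Cd36 and Plin2 were highest in the lung-labelled library, and Dgat2 in the heart-labelled one.

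Genes of ileal bile acid handling shared the library of Fabp6. Of 5 genes with at least 50 reads, 4 were called in the brain-labelled library, against 2.46% of all mRNAs tested. Slc10a2, which imports bile acids at the brush border, had 137 RPKM there (8.32-fold). Slc51a and Slc51b, the subunits of the basolateral bile acid exporter, had 331 (9.51-fold) and 466 (31.0-fold). Fgf15, the hormone that signals bile acid uptake to the liver, had 20.8 (14.9-fold). The receptor Nr1h4 was not called, with 111 RPKM in the colon-labelled library and 96.6 in the brain-labelled one.

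Genes of fatty acid use in muscle were mostly highest in the library of Fabp3, though few by as much. Of 14 genes, 11 were highest in the heart-labelled library, and 3 were called there, against 12.7% and 2.47% of all mRNAs tested. Cpt1b, the muscle form of the enzyme that admits fatty acids to mitochondria, was 15.0-fold, Lpl, which frees fatty acids from lipoproteins, 11.4-fold and Hadhb, of the β-oxidation complex, 5.34-fold above the next library. Acadm, a dehydrogenase of β-oxidation, had 2423 RPKM in the heart-labelled library and 3527 in the colon-labelled one.

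Retinoid genes were spread over several libraries, as were all mRNAs tested. Of 25 genes, 20 had at least 50 reads in some library. Of these, 8 were highest in the lung-labelled library and 6 in the brain-labelled one, against 26.8% and 17.1% of all mRNAs tested. In those labelled colon and small intestine 3 each were highest, against 14.7% and 21.7%. From the 20, 4 were called in 3 different libraries, against 22.2% of all mRNAs tested, which is no higher a share. Bco1, which cleaves β-carotene to retinal, had 5.26 RPKM in the brain-labelled library (6.21-fold), and Rdh7, a retinol dehydrogenase, had 22.4 there (4.79-fold). Aldh1a1, which makes retinoic acid, had 847 RPKM in the lung-labelled library (5.06-fold), and the retinol dehydrogenase Rdh10 had 205 in the colon-labelled one (4.32-fold). Ttr, the plasma partner of Rbp4 and named here after its values were seen, had 1819 RPKM in the small intestine-labelled library and 654 in the colon-labelled one, and did not follow the order of Rbp4.

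**Figure D4:**
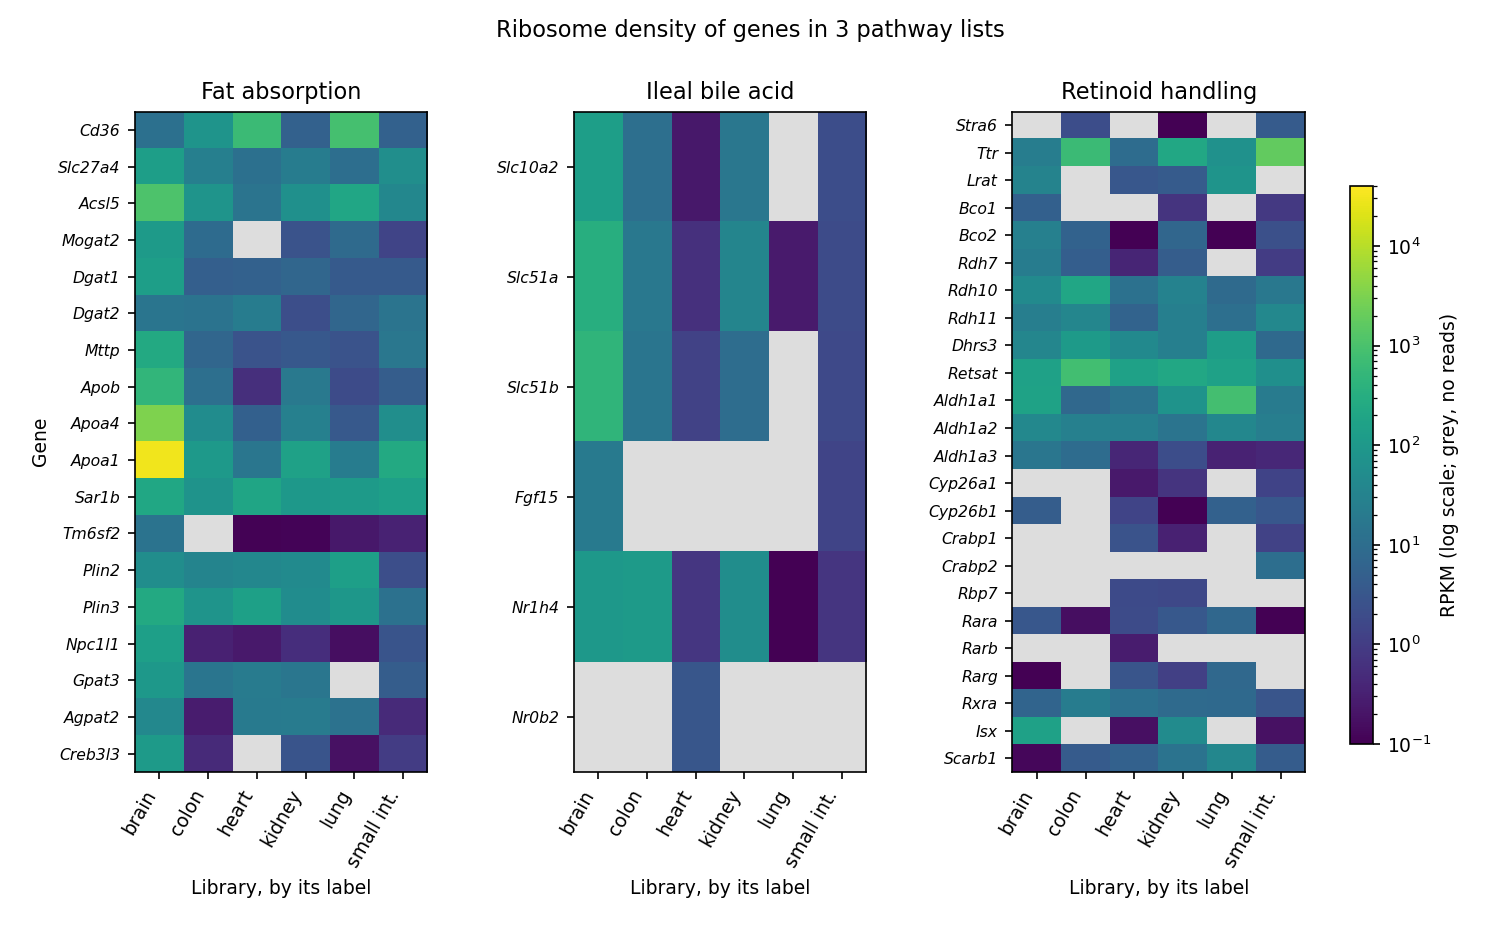
Ribosome density (RPKM, log colour scale, values under 0.1 in the darkest colour, grey where no read was counted) of genes of enterocyte fat absorption, ileal bile acid handling and retinoid handling in the 6 libraries, named by their labels. The column labelled brain is the brightest for 15 of 18 fat absorption genes, while retinoid genes peak in several columns.

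Transcription factors known to act on these genes were most often highest in the brain-labelled library, with 5 of 10 there, against 17.1% of all mRNAs tested, and none of these called. Ppard had 346 RPKM there, Isx, which represses carotenoid uptake in the gut, 164, Hnf4a 134 and Cdx2 52.0. Isx and Cdx2, factors of intestinal epithelium, were next highest in the kidney-labelled library, at 51.0 and 16.8 RPKM, and were at 0 in those labelled colon and lung. Of the 10, 1 was called, against 22.2% of all mRNAs, namely Pparg in the kidney-labelled library (9.57 RPKM, 7.42-fold).

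The mRNAs whose pattern over the 6 libraries was most like that of each member were found by the Pearson correlation of log2(RPKM + 1) with 12975 other mRNAs. With 6 points that share library and depth, these correlations are a description. They follow the shape of a pattern and not the size of its differences. Rbp2 was most like Zfp946 (r = 0.999), Ccl25 (0.998) and Hk3 (0.998), with Zfp946 and Hk3 at 4.55 and 2.01 RPKM at their highest. Fabp6 was most like Ccl25 (0.986), Tmem41b (0.986) and Rad51ap1 (0.981). Ccl25, a chemokine of the small intestine, was the only mRNA on both lists, at 1064 RPKM in the brain-labelled library. Fabp2 was most like Pkp1 (0.994), Cdc27 (0.994) and Glipr1l2 (0.991), all under 10 RPKM in every library.

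For the other members the nearest mRNAs were named by the same measure. Fabp1 was most like Zdhhc12 (0.997), Papss1 (0.991) and Tlr12 (0.980). Fabp3 was most like Cdc37l1 (0.995), Atf6 (0.994) and Trip11 (0.990), though Trip11 ran only from 18.2 to 27.4 RPKM and Fabp3 from 1.89 to 4421. Fabp4 was most like Furin (0.982), G3bp1 (0.980) and Stbd1 (0.970). Fabp5 was most like Arl6ip4 (0.998), Tmem245 (0.995) and Paqr7 (0.989). Rbp4 was most like Smim14 (0.998), Acer3 (0.994) and Zfp180 (0.991). For Fabp7, 82 mRNAs tied at r = 1, since each had reads only in the small intestine-labelled library. Abcg4, Adarb2 and Arhgap36 are the first of them in alphabetical order.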

How the data were processed

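Lysates of 6 freshly collected mouse tissues were treated with RNase I, and the protected fragments were size-selected, polyadenylated, reverse transcribed and sequenced. The values deposited by the authors were RPKM, 1 for each mRNA of a library, in rows named by gene, transcript and CDS position. Per the labels, the tools were cutadapt and STAR and the build GRCm39. The Methods, written for macrophage libraries and taken to hold here, discard reads under 15 nt, use the isoform with the longest CDS of each gene, and exclude multi-mapped reads and those with over 2 mismatches. RPKM lowers every other mRNA of a library in which a few mRNAs take many reads.

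Reads were recovered as RPKM times CDS length over the value of 1 read, and came out whole for 100% of values (tolerance 0.001 reads). Gene symbols, CDSs and coordinates were read from GENCODE M39 on GRCm39, in which 18154 of 18437 CDSs had the same length and began with a start codon. Intervals are at 95%, exact Poisson for levels, Wilson for shares and exact binomial for ratios. A library with under 3 reads was set to the RPKM of 3 reads in fold changes. Footprint windows of 29 nt were searched with BWA 0.7.19, and proteins were aligned with Biopython 1.88. Read recovery and the 4-fold call were tested on simulated data. Figures used matplotlib 3.10.9 and statistics scipy 1.17.1, with pandas 2.3.3 and numpy 2.4.6 under Python 3.11.15.

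The members and lists were chosen with earlier results of these data known. Named were the 9 members, at most 4 genes per list with the highest RPKM or largest fold in the library of a member, and the 3 mRNAs most like each member. The other retinoid and regulator genes that are named were singled out after their values were seen. Markers were listed by cell type, also with earlier results known. Alternatives were another fold (2 or 10), no filter on reads, median-of-ratios size factors, RPKM without Kri1 and the mitochondrially encoded mRNAs, TPM, shares of reads and a family of 15, of which a gene is not reported here. Added after seeing the data were leaving out each library and the CDS length shared with another isoform.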

Additional observations from a re-analysis of the deposited data

How the results depend on the processing

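Of the 9 members, 5 were called at 2-fold (against 43.0% of all mRNAs), at 10-fold (12.3%), with no filter on reads (20.0%), with size factors (21.7%) and without Kri1 and the mitochondrially encoded mRNAs (21.5%). The count was 2 without the brain-labelled library (25.5%), 4 without the heart-labelled one (23.4%) or small intestine (18.0%), and 5 without the colon-labelled one (24.6%), kidney (26.2%) or lung (22.4%). Without the small intestine-labelled library Fabp7 had no reads and was not among the members tested. At 2-fold and without the brain-labelled library the share was close to or no higher than that of all mRNAs. With 15 lipid-binding proteins in the sum, which lowers each share by construction, the paralog that led among Fabp1 to Fabp7 made up 51.4% in the brain-labelled library, 34.0% in the colon-labelled one, 75.5% in the heart-labelled one, 71.4% in the kidney-labelled one, 46.7% in the small intestine-labelled one and 40.6% in the lung-labelled one. With shares of reads Fabp6 made up 51.1% in the brain-labelled library. The library in which a member was highest was kept by 8 of 9 with size factors, 8 of 9 without Kri1 and the mitochondrially encoded mRNAs and 7 of 9 as TPM, the exceptions being Rbp4 in each and Fabp4 as TPM. Size factors multiplied RPKM by 0.716 (labelled lung) to 1.14 (labelled small intestine). No paired analysis was possible because each tissue had 1 library and no test was made. Depth limits the levels that rest on few reads, as of Fabp6 and Rbp2 in the colon-labelled library, with 2 reads each.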
